A study of Drosophila melanogaster with 4 samples.

Results

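The Antennapedia complex is the gene cluster on arm 3R that holds 5 homeotic genes of Drosophila melanogaster: labial (lab), proboscipedia (pb), Deformed (Dfd), Sex combs reduced (Scr) and Antennapedia (Antp). Its coverage by histone H3 trimethylated at lysine 27 (H3K27me3) was described from lists of enriched regions, called clusters here, obtained by chromatin immunoprecipitation and sequencing (ChIP-seq). The clusters were those that overlapped 3R from 2470000 to 2910000 on FlyBase release 5, a window of 440 kb. This took in 17 of 2510 clusters in ChIP replicate 1, 4 of 1819 in ChIP replicate 2 and 3 of 4966 in the combined list, a list deposited for the whole series. All animals were wild-type Oregon-R (Oregon-R-modENCODE) larvae of the third instar, whole and untreated as far as the labels say, so a region in a cluster need not be marked in every cell. There were 2 ChIP libraries, made with 1 mouse monoclonal antibody to H3K27me3, and 2 input libraries, for which no list was analysed here. Whether the replicates were separate collections of larvae is not stated in the labels, so their spread may be technical, and the depth behind the lists is unknown. The combined list is not a further replicate.

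Homeotic genes encode transcription factors that give body segments their identity along the head-to-tail axis. In cells where a homeotic gene is to stay silent, Polycomb group proteins hold it off: Polycomb repressive complex 2 methylates H3 at lysine 27, and the mark spreads over broad stretches from DNA elements to which the complex is recruited. The complexes of homeotic genes are the classical targets of this system in the fly. The mark was measured here, and binding of the Polycomb group proteins was not. The complex on this part of 3R also carries genes without a homeotic function, among them cuticle protein genes, early embryonic patterning genes derived from the same homeobox family, microRNA genes, and a group of tRNA and 7SL RNA genes.

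H3K27me3 covered nearly the whole complex in both replicates, in 3 long blocks. Clusters covered 382.2 kb of the window in replicate 1 and 399.0 kb in replicate 2, or 86.9% and 90.7% of its length (mean 88.8% ± 2.69, SD, n = 2). In the rest of arm 3R the covered shares were 11.4% and 12.8%. The window is 1.58% of the arm and held 10.9% of its covered sequence in replicate 1 and 10.2% in replicate 2. Of 62 windows of equal length laid end to end along 3R, it ranked 1 in both replicates. The other 61 had medians of 5.59% and 8.39% covered, and the highest of them had 52.3% and 54.8%. Of the 62 windows, 3.23% were at least 50% covered in both replicates. The windows that ranked 2 and 3 in both replicates each hold a part of the bithorax complex, which also holds homeotic genes. The grid cuts that complex at 12590023. From its first to its last homeotic gene it was 98.2% covered in replicate 1 and 98.7% in replicate 2. The Antennapedia window was laid around its complex and the others fall on a fixed grid, so this ranking is a description.

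**Figure D1:**
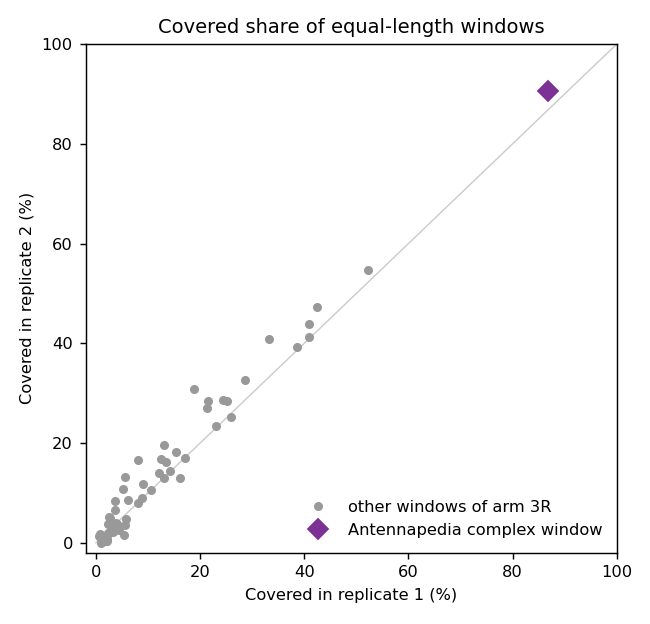
Covered share (%) of each of the 62 equal-length windows of arm 3R in replicate 1 (x axis) and replicate 2 (y axis); each point is a window, the diamond is the Antennapedia complex window and the line marks equal values. The Antennapedia complex lies at 86.9% and 90.7%. The next highest window, which holds a part of the bithorax complex, lies at 52.3% and 54.8%.

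All 5 homeotic genes lay almost completely inside clusters. A gene was counted as covered when at least 90% of its annotated span lay in clusters in both replicates: 5 of 5 members were, against 5.97% of the 4204 genes placed on 3R, and against 6.15% of the 455 genes of 10 kb or more. Every base was covered in 2 of 5 members in replicate 1 and in 5 of 5 in replicate 2, against 5.61% and 7.73% of the genes of 3R. Of the 191.9 kb in the 5 genes together, 98.7% was covered in replicate 1 and 100% in replicate 2. Genes inside 1 cluster are not independent of each other, so these counts describe a single locus.

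From left to right, lab, which acts in the head and in part of the midgut, spans 17.2 kb (2487149 to 2504312). Every base of it was covered in replicate 1, in replicate 2 and in the combined list, in each by a single cluster. The replicate 1 cluster over lab had the highest deposited score of the 17 in the window, 1.68, rank 65 of 2510. The score is the submitters' own value for a cluster; no source at hand states its scale, so it serves here for ranks inside a list.

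The pb gene, which directs formation of the adult mouthparts, spans 34.3 kb (2533522 to 2567785). It was 95.9% covered in replicate 1 and 100% in replicate 2 (mean 97.9% ± 2.91, SD, n = 2). The lowest replicate 1 value of the 5 members was that of pb. Of its 1410 uncovered bases in replicate 1, 1337 lay at the left end of the gene and 73 in a break between 2 clusters inside it.

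Dfd, needed for the maxillary and mandibular segments of the head, is the shortest member at 10.6 kb (2617558 to 2628150). It was 100% covered in all 3 lists and lay wholly in a 26.99 kb cluster of replicate 1. The flanks within 2 kb of Dfd were covered in both replicates as well.

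Scr, which specifies the labial and the first thoracic segment, spans 26.9 kb (2648842 to 2675703). It was 96.8% covered in replicate 1 and 100% in replicate 2 (mean 98.4% ± 2.25, SD, n = 2). All 853 bases left out in replicate 1 were at its left end, next to the tRNA and 7SL genes described below.

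Antp, which specifies the second thoracic segment and promotes leg over antennal development, is the longest member at 103.0 kb (2721975 to 2824950). It was 99.8% covered in replicate 1 and 100% in replicate 2 (mean 99.9% ± 0.135, SD, n = 2). Replicate 1 left out 197 bases inside the gene, where a cluster of 142.8 kb ended and one of 82.8 kb began. The replicates therefore differed at pb, Scr and Antp by 4.12, 3.18 and 0.19 percentage points, and did not differ at lab or Dfd. The strand of the genes was not used here, so an uncovered end is named by its side and not as the start or the end of transcription.

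**Figure D2:**
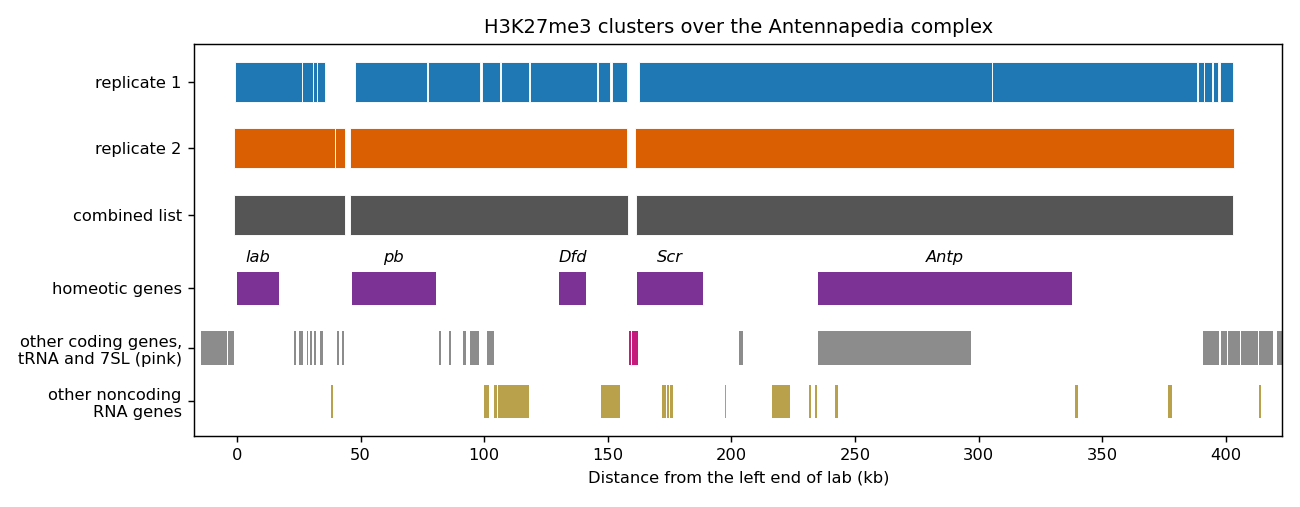
Clusters of replicate 1, replicate 2 and the combined list over the window, with annotated genes below; the x axis is the distance from the left end of lab in kb, each bar is a cluster or a gene, white lines part neighbouring clusters, and genes under 0.5 kb are drawn 0.5 kb wide. In all 3 lists the clusters form 3 blocks, with lab in the first, pb and Dfd in the second, and Scr and Antp in the third.

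The blocks put the homeotic genes into 3 groups. When clusters closer than 1 kb were joined, each of the 3 lists had exactly 3 blocks: the left one with lab, the middle one with pb and Dfd, and the right one with Scr and Antp. The grouping depends on that distance: joining clusters closer than 5 kb left 2 pieces in replicate 1 and 1 in replicate 2. The left block was 36.5 kb long in replicate 1 and 44.9 kb in replicate 2, the middle one 110.1 and 112.2 kb, and the right one 240.1 and 241.9 kb. The right block is the widest cluster of the whole replicate 2 list and of the whole combined list. Replicate 1 had no base in the window outside the replicate 2 clusters, while replicate 2 had 16.8 kb outside those of replicate 1. The overlap of the replicates, the length covered in both over the length covered in either, was 95.8% in the window and 68.4% in the rest of 3R. The replicates covered 86.9% and 90.7% of the window but 11.4% and 12.8% of the rest of 3R. A higher overlap in the window follows from those covered shares alone, so it does not show better agreement there. The difference between those overlaps was not tested.

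The replicates differed in how far the blocks reached and in how many pieces made them up. Of the 16.8 kb covered in replicate 2 alone, 12.2 kb lay beyond the block ends of replicate 1 and 4.56 kb in short breaks inside its blocks. The largest shift of an end was 7.79 kb, at the right end of the left block. The left block consisted of 4 clusters in replicate 1 and 2 in replicate 2. The middle block consisted of 7 clusters in replicate 1 and 1 in replicate 2, and the right block of 6 and 1. Most breaks in replicate 1 were short: of 15 gaps between its clusters, 13 were under 1 kb, from 9 to 901 bp, with 4556 bp in all. Those 13 were completely filled by replicate 2. A further pair of neighbouring replicate 1 clusters had no base between them (2517790 and 2517791). The short break of replicate 2, 70 bp wide between CR33938 and Ccp84Ab, fell inside a wider gap of replicate 1.

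In the window, clusters of 20 kb or more scored higher than the narrower ones of the same list, though scores did not follow width among the wide ones. The 6 replicate 1 clusters of 20 kb or more scored 1.17 to 1.68 and the 11 narrower ones 0.58 to 0.98, against a median of 0.66 for the whole list. In replicate 2 the clusters over lab, over pb with Dfd, and over Scr with Antp scored 2.26, 2.25 and 2.34, ranks 74, 75 and 68 of 1819, and the remaining narrow one scored 0.67, close to the median of the list of 0.67. Among the 45 replicate 2 clusters of 20 kb or more on 3R, the 3 wide ones of the complex ranked 18, 19 and 16 by score and 27, 5 and 1 by width. The complex thus held the widest replicate 2 cluster of the arm, and 15 other wide clusters of the arm scored higher.

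The share of a wide replicate 2 cluster found again in replicate 1 differed between the blocks. It was 88.5% for the 40.9 kb cluster over lab, 95.7% for the one over pb and Dfd, and 98.6% for the one over Scr and Antp. The other 42 wide replicate 2 clusters on 3R had a median of 94.9%, with a range of 55.7% to 99.7%. All 3 values of the complex lie within that range.

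The gap between the lab block and the pb block was intergenic in replicate 2 and wider in replicate 1. In replicate 2 it ran from 2530743 to 2532834, 2092 bp, and in the combined list from 2530873 to 2532903, 2031 bp. It began 117 bp after the end of the cuticle protein gene Ccp84Aa and ended 687 bp before pb in replicate 2. In replicate 1 it ran from 2522954 to 2534858, 11.9 kb, and took in Ccp84Aa, Ccp84Ab, the noncoding RNA gene CR33938 and the left end of pb. Replicate 2 filled 81.8% of that wider gap. Its own gap of 2092 bp lay wholly inside the gap of replicate 1.

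The gap between the Dfd side and the Scr side coincided with a group of small RNA genes. It ran from 2645081 to 2648319 in replicate 2 (3239 bp), from 2644944 to 2649694 in replicate 1 (4751 bp) and from 2645168 to 2648460 in the combined list (3293 bp). In the window lie 4 lysine tRNA genes and 2 genes for 7SL RNA, the RNA of the signal recognition particle; both kinds are transcribed by RNA polymerase III. All 6 lay inside the replicate 1 gap. In replicate 2, tRNA:Lys-TTT-2-1, tRNA:Lys-TTT-2-2, tRNA:Lys-TTT-2-3 and 7SLRNA:CR42652 had no covered base, 7SLRNA:CR32864 was 67.2% covered, and tRNA:Lys-TTT-2-4, which adjoins Scr, was 100% covered. These genes are named as copies of 1 tRNA and of 1 7SL RNA. The handling of reads that match several copies is not stated in the labels or headers, and its part in the gap was not tested. Of all 79 tRNA genes of 3R, these 4 included, 17 had a covered base in either replicate. That share of 21.5% is near the 17.0% of all genes of the arm. In replicate 2, 12 of the 79 lay in clusters of 20 kb or more, so wide clusters elsewhere on the arm held tRNA genes.

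**Figure D3:**
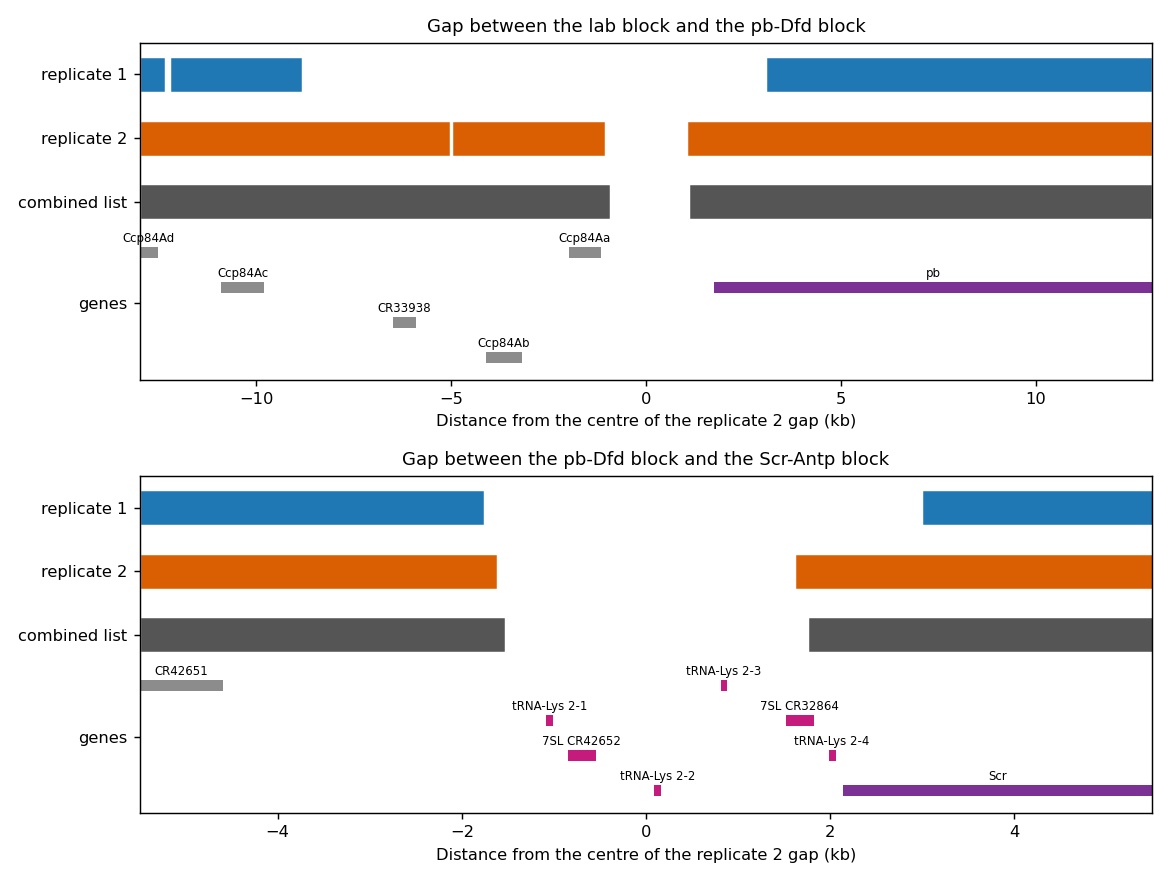
The gaps on either side of the pb and Dfd block, with the clusters of each list and the genes below; the x axis is the distance from the centre of the replicate 2 gap in kb, and bars are clusters or genes, with tRNA and 7SL genes in pink. The left gap is 2092 bp in replicate 2 and 11.9 kb in replicate 1, and the right gap is 3239 and 4751 bp and holds tRNA and 7SL genes in every list.

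Between the homeotic genes, coverage was lowest in the intervals that hold those gaps and complete between Scr and Antp. The 29.2 kb from lab to pb was 62.7% covered in replicate 1 and 92.6% in replicate 2. The 49.8 kb from pb to Dfd was 97.2% and 100% covered. From Dfd to Scr, 20.7 kb, the shares were 75.1% and 84.3%. The 46.3 kb from Scr to Antp was 100% covered in both replicates.

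A list of 5 further genes of the complex was completely covered. Of the genes of 3R, 5.61% were completely covered in replicate 1 and 7.73% in replicate 2. All 5 were at 100% in both replicates: zen2 and its paralog zen, which directs formation of the extraembryonic amnioserosa, bcd, whose maternal product patterns the anterior of the embryo, the pair-rule gene ftz, and Ama, which encodes a secreted immunoglobulin-domain protein. Most noncoding RNA genes were covered too. The microRNA genes mir-993, between pb and Dfd, and mir-10, between Dfd and Scr, were each 100% covered in both replicates, against 8.62% of the 58 microRNA genes of 3R that were counted as covered. Of 19 long noncoding RNA genes between the outer edges, 17 were counted as covered, against 20.5% of those on 3R. Those edges are ends of the clusters themselves, so a high count between them is largely built in. The exceptions among the long noncoding RNA genes were CR33938, with 0% in replicate 1 and 100% in replicate 2, and CR42651, which spans mir-10, with 88.1% and 100%.

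Of the 8 cuticle protein genes between lab and pb, 5 were counted as covered and 3 differed between the replicates. Of all genes of 3R, 5.97% were counted as covered. Edg84A, Ccp84Af, Ccp84Ae, Ccp84Ad and Ccp84Ac were 100% covered in both replicates. Ccp84Ag was 84.8% covered in replicate 1 and 100% in replicate 2. Ccp84Ab and Ccp84Aa, nearest to pb, had 0% in replicate 1 and 100% in replicate 2, so for them the lists disagree completely. On 3R as a whole, 2.24% of genes were at least 90% covered in replicate 2 and under 90% in replicate 1.

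**Figure D4:**
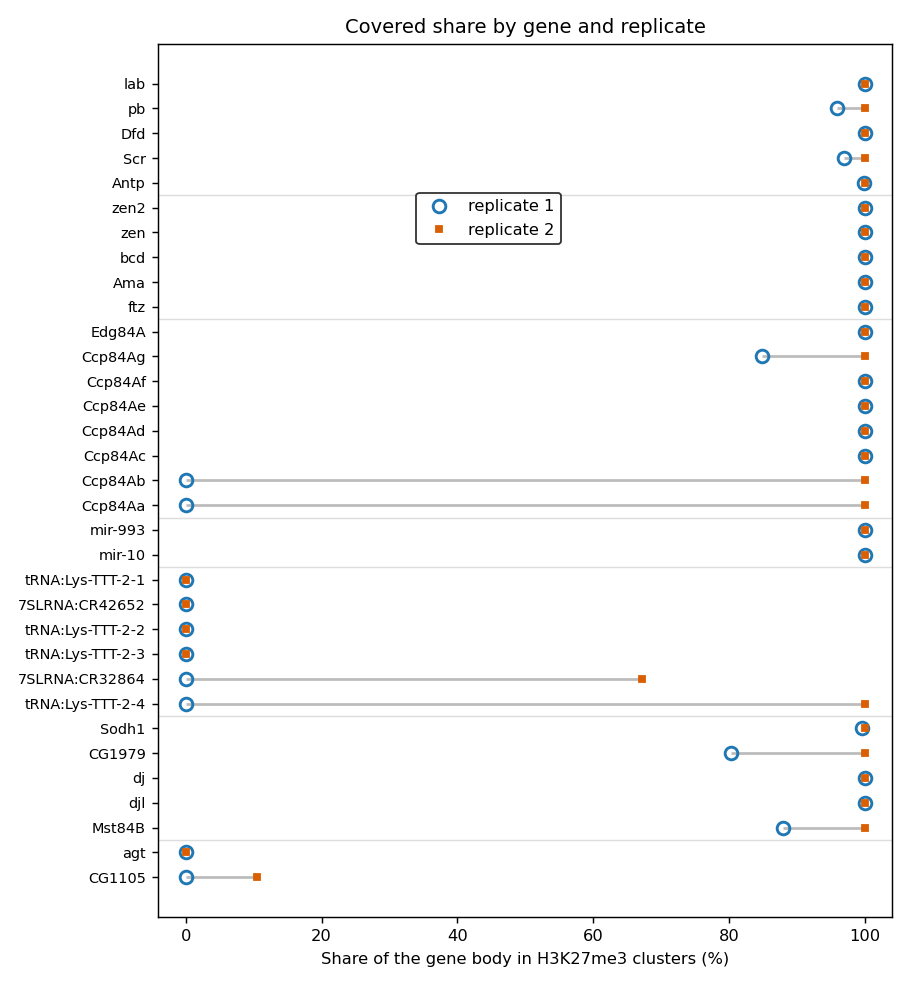
Share of the gene body in clusters (%, x axis) for genes of the complex and its borders, with replicate 1 as open circles, replicate 2 as filled squares and a grey line joining them; horizontal lines part homeotic, patterning, cuticle, microRNA, tRNA and 7SL, right-hand and bordering genes. The 5 homeotic genes lie between 95.9% and 100%, while Ccp84Ab and Ccp84Aa go from 0% to 100% between the replicates.

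On the far side of the outer edges, the nearest genes had few or no bases in clusters. On the left, clusters began at 2486413 in replicate 1 and at 2485851 in replicate 2, 562 bp apart and both between agt and lab. The gene agt encodes a DNA repair alkyltransferase; in replicate 2 the edge was 29 bp from its end and 1298 bp from lab. The 4 genes that lie wholly between the window start and this edge had no covered base in either replicate. That follows from the definition of the edge, which is the first covered base of the window in either replicate. These genes are Taf1, which encodes a subunit of the general transcription factor TFIID, CG1307, twr and agt. On 3R as a whole, 83.0% of genes had no covered base in either replicate.

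On the right, the mark ran on past Antp for 65.3 kb. In that stretch, 97.4% was covered in replicate 1 and 100% in replicate 2. It holds a long interval with 2 noncoding RNA genes, then Sodh1, which encodes a sorbitol dehydrogenase, CG1979, the sperm protein genes dj and djl, and Mst84B. The values for replicate 1 were 99.6% for Sodh1, 80.2% for CG1979, 100% for dj and djl, and 87.9% for Mst84B, and replicate 2 covered all of them at 100%. Clusters of 20 kb or more ended at 2875471 in replicate 1 and at 2890216 in replicate 2, 14.7 kb apart. Replicate 1 continued to 2889826 in 4 smaller clusters of 2.08 to 5.12 kb, and with these the edges were 390 bp apart. Mst84B and CG1105 overlap in the annotation, and the edge fell within Mst84B in replicate 1 and within CG1105 in replicate 2. CG1105 was 0% covered in replicate 1 and 10.5% in replicate 2.

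Beyond the right edge no cluster was found for 67.4 kb in replicate 1 and 66.8 kb in replicate 2. The 12 genes that lie wholly in the next 50 kb were therefore at 0% in both replicates, and they were at 0% in the combined list as well. They include Ref1, an mRNA export factor, and alphaTub84B, a ubiquitous alpha tubulin. Of all genes of 3R, 83.0% had no covered base in either replicate. The outermost edges are ends of these same clusters, so gene counts inside and outside them follow largely from how the edges were drawn. Between the outermost edges, 39 of 52 genes were counted as covered. Among them were 20 of 25 protein-coding genes, against 4.31% of the protein-coding genes of 3R. Of the 13 other genes of the window, 11 had no covered base in either replicate, against the same 83.0% of genes on 3R. The other 2 were CG1105 and Ass, the latter at the window start and under a separate replicate 2 cluster that ends before the window.

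**Figure D5:**
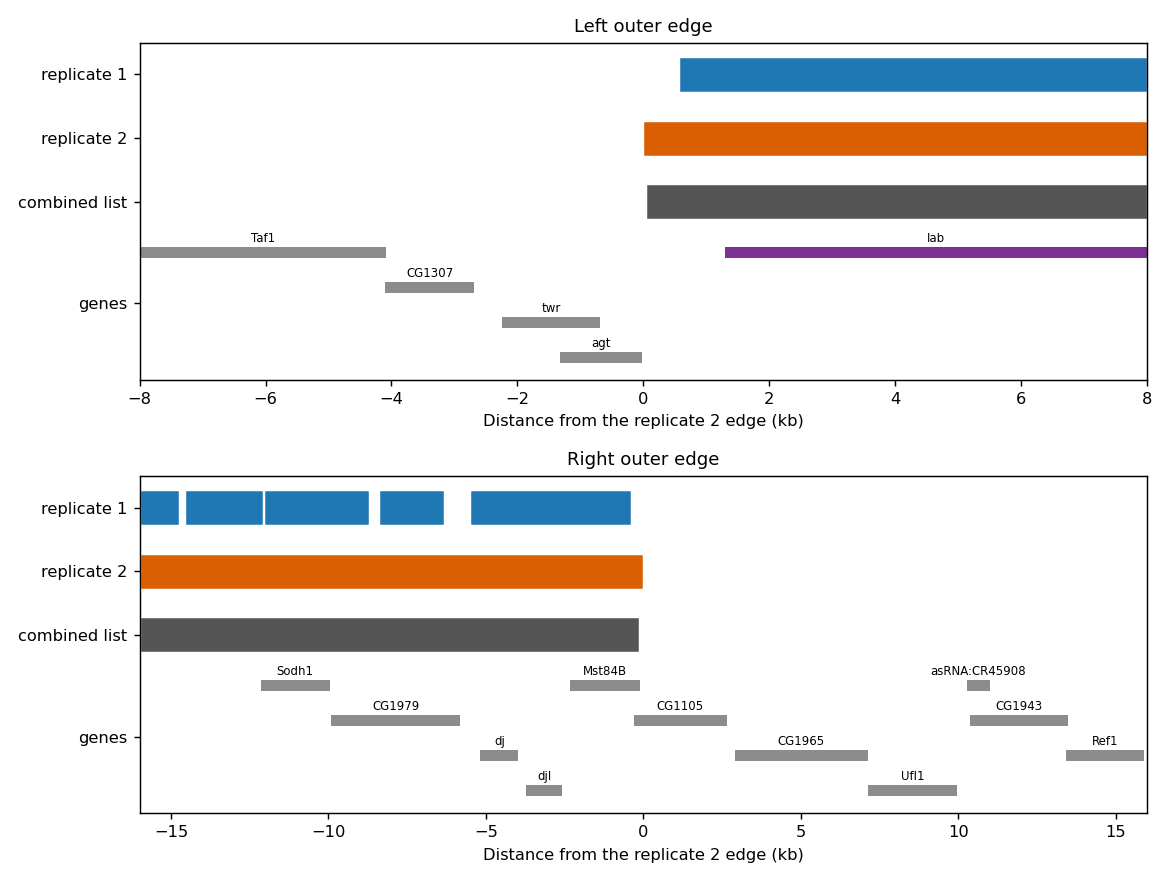
The left and right outer edges of the marked region, with clusters of each list and genes below; the x axis is the distance from the replicate 2 edge in kb, and bars are clusters or genes. Replicate 1 and replicate 2 end 562 bp apart on the left and 390 bp apart on the right, where replicate 1 is split into small clusters over Sodh1, CG1979, dj, djl and Mst84B.

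The homeotic genes of the bithorax complex, which specify posterior thorax and abdomen from another place on 3R, also lay almost wholly in clusters. Ubx was 98.1% and 100% covered, and abd-A and Abd-B were 100% covered in both replicates. From Ubx to Abd-B, 315.6 kb, the covered share was 98.2% in replicate 1 and 98.7% in replicate 2, in 2 clusters in each. From lab to Antp, 337.8 kb, it was 94.1% and 98.4%, in 13 and 4 clusters. With 1 locus of each kind this difference was not tested.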

How the data were processed

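The submitters' files are lists of regions of significant enrichment with 1 score per region, 1 list per ChIP library and 1 combined list. The deposited score has no stated unit. Coordinates are on FlyBase release 5, per the file headers, and reads were handled with Bowtie 0.12.7, per the submitters' processing notes. The region caller, its threshold, the use of input and the making of the combined list are not stated in the labels or headers.

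Gene spans came from a RefSeq table of release 6, from which 4174278 bp was subtracted on 3R. This placed 5 of 5 members in the window and the last gene at 27894163, inside the arm length of 27905053 in the headers; 20 of 4224 genes fell before the arm start and were left out. The offset was not checked base by base. Covered share is the bases of a span inside the union of a list's clusters, and an overlap needed at least 1 bp. The interval arithmetic was tested on simulated data. There is 1 condition, so no test was made; values are given per replicate. The genes, lists and window were chosen with earlier results of these data known. Always named were the 5 members, a list of other complex genes, genes at edges and gaps, and genes that differed by 10 points or more between replicates. Python 3.11.15, numpy 2.4.6, pandas 2.3.3 and matplotlib 3.10.9 were used.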

Additional observations from a re-analysis of the deposited data

How the results depend on the processing

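As a mean of the replicates, the covered share of the window was 85.8% with clusters of at least 5 kb, against 88.8%. The mean share of member bases was 97.4% with 2 kb added on either side of each gene, against 99.4%. The number of clusters in the window depended most on the setting. The mean of the replicates, 10.5, became 6.5 with clusters of at least 5 kb, 3 when clusters closer than 1 kb were joined, 1.5 when those closer than 5 kb were joined and 3 in the combined list, and ranged from 4 to 17 with a replicate left out. Replicate 1 had 10, 3 and 2 clusters under the first 3 of these settings, and replicate 2 had 1 when clusters closer than 5 kb were joined. Filtering and joining can only lower these counts. The genes of 3R counted as covered were 251 when both replicates were required. They were 276 with replicate 2 left out, 345 with replicate 1 left out and 427 in the combined list. Each of these last 3 counts takes 1 list in place of agreement of 2. The count of the combined list was higher than that of either replicate, and the reason was not tested. The distance between the right edges was 390 bp, in place of 14745 bp, with outermost clusters of at least 5 kb or of any width. Over 50 recalculations for single members, which included gene positions moved by 1 kb, the lowest value was 93.0%, for Scr with 2 kb on either side. That value is a mean of the replicates, and replicate 1 lay below it. A leave-one-out value of a mean of 2 lies within 1 SD by construction. The alternatives at gene starts were not run, since the gene table gives no strand. No paired analysis was possible because no list of the input libraries was analysed and the ChIP libraries form a single group. Depth is unknown and limits what a missing cluster shows.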

Other observations

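Of the 5 genes of the tRNA:Lys-TTT-2 group on 3R, 4 lie at the gap next to Scr. Short gaps on 3R were defined as stretches narrower than 10 kb between neighbouring clusters of 20 kb or more. Narrower clusters between those were disregarded. Replicate 2 had 9 such gaps, and the gap next to Scr was the one that held a tRNA gene. The 9 include the stretch from 2526750 to 2532834, which holds a narrower cluster of 3.92 kb. Under the same definition replicate 1 had 9 such gaps, of which 0 held a tRNA gene. Its own gap next to Scr is flanked on the left by a cluster of 5.89 kb. With clusters under 20 kb disregarded, that stretch runs from 2632825 to 2649694. It is wider than 10 kb and so is not among the 9. These counts were chosen after the gap had been seen, and no test was made of them.

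To the left of the complex the combined list held more clusters than the replicates. In the 50 kb before the left edge it covered 20.8% in 6 clusters, against 3.99% in 1 cluster of replicate 1 and 6.39% in 2 clusters of replicate 2. In the 50 kb beyond the right edge all 3 lists were at 0%.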
